A study of Homo sapiens with 6 samples.

Results

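The genes described here are NFE2L2, which encodes the transcription factor NRF2, and 9 antioxidant or detoxification genes: NQO1, GCLM, GCLC, UGDH, AKR1C1, AKR1B10, PRDX1, TXNRD1 and GSR. They are 10 of 19987 protein-coding genes considered, which are those on a chromosome with at least 1 peak. They were chosen by role and on the number, width, summit position and fold rank of their peaks in these same lists, so values of those kinds are a description below and carry no test. The measurement was chromatin immunoprecipitation with sequencing (ChIP-seq) in HepG2-TAF2-V5, a clone of the human liver cancer line HepG2 with V5-tagged TAF2, a subunit of the general transcription factor TFIID. The series has 3 libraries of the V5 immunoprecipitation and 3 control libraries. Input is the treatment given for the controls, their titles read input DNA and their library names IgG. All 6 libraries come from this 1 clone, with no drug or oxidant treatment in the labels. How the tagged protein is expressed in the clone is not given in the sources used here. Peak lists of the 3 V5 libraries were analysed and none of a control, so no control value stands beside those below. Separate cultures are not stated, and any spread between libraries may be technical.

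NRF2 is held in the cytoplasm by KEAP1, which hands it to a CUL3 ubiquitin ligase for degradation. Oxidants and electrophiles release it. It then enters the nucleus, pairs with a small MAF protein and binds antioxidant response elements near genes for glutathione synthesis, thioredoxin and peroxide reduction, carbonyl and quinone reduction, and conjugation, which are active in liver. TFIID binds core promoters and helps RNA polymerase II to start there, so its subunits are usually looked for at transcription starts.

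The peak lists held 1599, 2557 and 1887 peaks in replicates 1, 2 and 3, with a median width of 220, 224 and 224 bp. Without read counts in the lists, the depth of these libraries is unknown. The fold of a peak is the authors' enrichment over the background of their caller and is compared only inside its own list, as a percentile (100 is the strongest peak). Peaks were assigned to a gene when they overlapped its RefSeq span or the 1000 bp on either side by at least 1 bp. Of the 10 genes, 10 had a peak in at least 1 library (8.67% of all protein-coding genes did), 8 had one in at least 2 libraries (3.76%) and 4 in all 3 (1.90%). The genes in all 3 were NFE2L2, UGDH, TXNRD1 and AKR1C1. GCLC and AKR1B10 had a peak in 1 library. Together the 10 genes held 75 peaks, 19, 27 and 29 in replicates 1, 2 and 3, and 65 of them lay at the genes present in all 3 libraries. A gene with a peak in at least 2 libraries is referred to as called. The share of called genes differed with gene length: sorted by length into 4 groups of equal size, 1.82, 2.86, 3.74 and 6.60% of all genes were called, from the shortest group to the longest. No member was in the shortest group, and 4, 5 and 1 were in the next 3. TXNRD1, at 134529 bp, was the one among the longest.

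**Figure D1:**
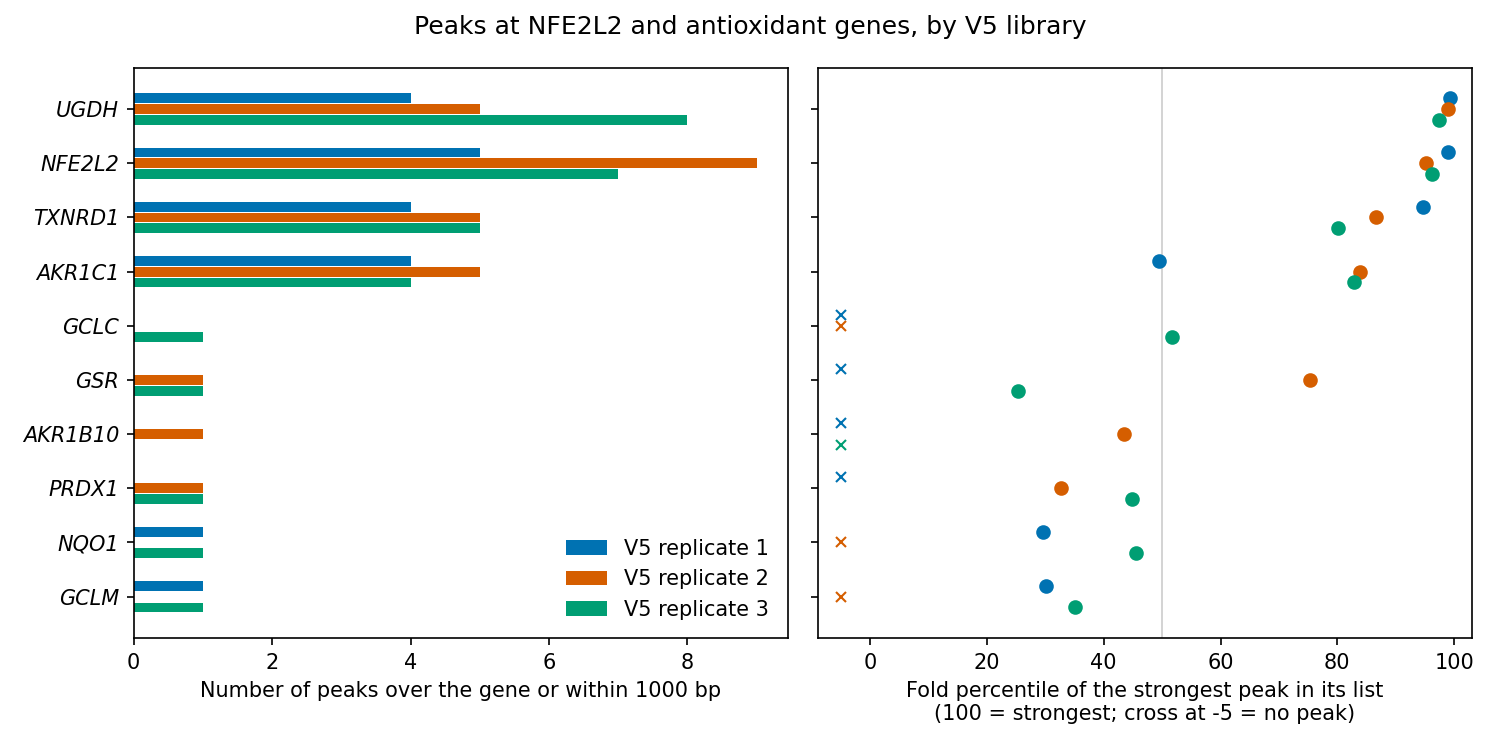
Number of peaks over each gene or within 1000 bp of it (left, bars) and fold percentile of its strongest peak within the list (right, points; crosses left of 0 mark no peak), for V5 replicates 1 to 3. UGDH, NFE2L2, TXNRD1 and AKR1C1 have 4 or more peaks in every library, and the other 6 genes have at most 1.

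The promoters where peaks of at least 2 libraries covered part of the 250 bases before the RefSeq start are printed first, since they are the sequences on which the start peaks below lie. They are from RefSeq (GRCh38.p14), 5′ to 3′ on the strand of the gene, and end at the base before the start. Capitals mark bases inside peaks of at least 2 libraries. All 4 genes lie on the minus strand, and the intervals are chr2:177264728-177264977 for NFE2L2, chr4:39527440-39527689 for UGDH, chr16:69726561-69726810 for NQO1 and chr1:93909431-93909680 for GCLM.
NFE2L2: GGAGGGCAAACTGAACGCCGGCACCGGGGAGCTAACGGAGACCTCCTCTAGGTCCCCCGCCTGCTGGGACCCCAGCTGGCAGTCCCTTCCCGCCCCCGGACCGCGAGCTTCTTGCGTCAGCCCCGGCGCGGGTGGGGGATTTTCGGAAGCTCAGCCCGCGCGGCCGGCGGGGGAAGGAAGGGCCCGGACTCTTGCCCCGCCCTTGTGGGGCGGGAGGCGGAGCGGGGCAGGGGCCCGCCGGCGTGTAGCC
UGDH: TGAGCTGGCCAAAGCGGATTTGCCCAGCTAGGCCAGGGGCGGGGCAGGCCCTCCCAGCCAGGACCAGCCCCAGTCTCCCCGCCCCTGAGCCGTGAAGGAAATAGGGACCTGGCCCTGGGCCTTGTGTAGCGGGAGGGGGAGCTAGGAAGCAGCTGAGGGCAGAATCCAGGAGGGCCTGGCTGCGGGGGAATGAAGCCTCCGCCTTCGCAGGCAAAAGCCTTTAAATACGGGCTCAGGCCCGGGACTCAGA
NQO1: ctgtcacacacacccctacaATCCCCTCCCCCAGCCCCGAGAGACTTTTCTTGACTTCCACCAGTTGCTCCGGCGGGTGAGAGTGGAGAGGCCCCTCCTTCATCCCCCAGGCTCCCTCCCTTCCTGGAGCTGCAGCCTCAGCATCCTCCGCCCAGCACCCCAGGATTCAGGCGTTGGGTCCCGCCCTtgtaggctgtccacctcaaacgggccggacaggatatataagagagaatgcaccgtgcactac
GCLM: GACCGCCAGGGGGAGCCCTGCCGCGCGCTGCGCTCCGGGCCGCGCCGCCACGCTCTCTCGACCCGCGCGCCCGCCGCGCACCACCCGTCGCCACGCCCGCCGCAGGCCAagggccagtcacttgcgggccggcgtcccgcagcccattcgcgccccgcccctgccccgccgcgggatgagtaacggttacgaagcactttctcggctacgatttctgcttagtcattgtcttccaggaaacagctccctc

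All 250 bases were inside peaks of at least 2 libraries at NFE2L2 and UGDH, 167 at NQO1 and 109 at GCLM. At NFE2L2 all 250 were inside peaks of 3 libraries, and at UGDH 238. The promoter table held a start for 7 of the 10 genes. PRDX1, AKR1B10 and GSR had no entry, so their peaks are placed by the annotated ends of the gene. Of the 7 genes, 6 had a peak within 1000 bp of a start in at least 2 libraries, against 1.39% of 15812 protein-coding genes with an entry. The exception was GCLC. The guanine and cytosine content of these 300-base promoters was 75% at the upstream start of NFE2L2 and 76.3% at its second start. It was 71.7% at GCLM, 66.7% at UGDH, and 62.7% at NQO1 and GCLC. At TXNRD1 it was 58.0% at the first start and 53.7% at the inner start, and at AKR1C1 41.0%. The median over all 22132 protein-coding promoters was 62.3% (quartiles 53.0 and 70.0%).

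The antioxidant response element was searched as TGACNNNGC on both strands of these promoters, 250 bases before to 50 after the start. A match was present in 13.8% of all protein-coding promoters and in 17.7% of the 271 promoters with a peak within 1000 bp in at least 2 libraries (exact binomial 95% interval 13.4 to 22.8%, counting error only). It was present in 3 of the 9 promoters of the members (interval 7.49 to 70.1%), that of GCLM and both of TXNRD1. The members were chosen by role, so their share is a description. The matches are shown with up to 11 bases on either side and the match in capitals. That of GCLM lies at chr1:93909456-93909464, 34 to 26 bases before the start, and that of the inner TXNRD1 start at chr12:104286930-104286938, 102 to 94 bases before it. Both read as the reverse complement of the motif on the strand of the gene. The last pair belongs to the first start of TXNRD1, one match on the strand of the gene and one on the opposite strand.
GCLM: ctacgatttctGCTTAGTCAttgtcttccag
TXNRD1, inner start: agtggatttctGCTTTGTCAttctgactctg
TXNRD1, first start: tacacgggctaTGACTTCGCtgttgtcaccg
TXNRD1, first start, opposite strand: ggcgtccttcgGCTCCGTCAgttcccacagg

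The GCLM match lay inside the peak of replicate 1 and the inner TXNRD1 match inside a peak of replicate 3, each in that library alone. No peak covered the matches at the first TXNRD1 start. NFE2L2, NQO1, UGDH, AKR1C1 and GCLC had no match in these windows. The letters TATAAA, searched on the strand of the gene, were found in 6.47% of all promoters and in 1 of the members' 9, that of GCLC. A match is a string of letters and not a measured site.

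The regulator itself, NFE2L2 (gene ID 4780, chr2:177230303-177264727, minus strand), held 5, 9 and 7 peaks in replicates 1, 2 and 3. They covered 4153, 5807 and 5326 bp and merged into 8 regions, 6 of them with peaks of at least 2 libraries and 3 with peaks of all 3. One region sat at the upstream start (chr2:177264626-177265377), with folds of 7.52, 5.69 and 8.24 and summits 177, 377 and 114 bp before the start. Its fold percentiles were 92.5, 61.9 and 95.05, so replicate 2 stood below the other libraries there. The strongest peaks by fold lay farther in, in a block of 3731 bp (chr2:177259988-177263718), with folds of 10.7, 8.78 and 8.76 and percentiles of 98.9, 95.2 and 96.2. These peaks were 2408, 3726 and 2830 bp wide. Their edges nearest the start lay 1018, 1014 and 1009 bp into the gene, within 10 bp of each other, whereas their other edges lay 3425, 4739 and 3838 bp in. The 907 bp between the block and the start region held no peak in any library, and the second RefSeq start of NFE2L2, 596 bp into the gene, lies in this gap. Beyond the block, smaller peaks ran to 12568 bp, with folds of 3.89 to 6.41. Among these, 1 region, chr2:177258024-177259112, had peaks of all 3 libraries. Ranked by -log10 q, the start peaks were close to the block: 21.7, 13.04 and 19.6 against 22.9, 16.2 and 16.1, so in replicate 3 the start peak came first.

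Among the genes of glutathione metabolism, GCLM and GCLC encode the modifier and catalytic subunits of glutamate-cysteine ligase, the first enzyme of glutathione synthesis, and GSR encodes the reductase that regenerates glutathione. GCLM (chr1:93885199-93909430, minus strand) had 1 peak each in replicates 1 and 3, with folds of 4.40 and 4.63 and percentiles of 30.2 and 35.1. The peaks ran from 297 to 25 bp and from 292 to 142 bp before the start, and their summits were 23 bp apart. They overlapped the lower end of LOC124904221, a long noncoding RNA gene, so the gene to which they belong cannot be told from position. Replicate 2 had no peak within 406288 bp of GCLM. GCLC (chr6:53497341-53545101, minus strand) had 1 peak, in replicate 3, of fold 5.12 and percentile 51.7, with its summit 2074 bp into the gene. A further peak of that library lay 2925 bp outside the gene and beyond the 1000 bp limit, at percentile 4.001. The nearest peaks of replicates 1 and 2 were 69872 and 70222 bp away. GSR (chr8:30678066-30727846) had a peak of fold 6.34 in replicate 2 and of fold 4.38 in replicate 3. They did not overlap and were 1541 bp apart, the first inside the gene and the other across its upper end, so GSR was called without a shared region. Their percentiles were 75.2 and 25.4, and replicate 1 had no peak within 3354768 bp.

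Of the thioredoxin system, TXNRD1 encodes the cytosolic thioredoxin reductase and PRDX1 a peroxiredoxin that is reduced by thioredoxin. TXNRD1 (chr12:104215779-104350307, plus strand) held 4, 5 and 5 peaks in replicates 1, 2 and 3. None lay within 1000 bp of its first start. All 14 lay between 141 bp before and 12102 bp after the inner start at 104287032, which is 71253 bp downstream of the first. Only replicate 3 had a peak across that inner start (fold 5.68, summit 60 bp before it). The region shared by 3 libraries, chr12:104288541-104290470, held the strongest peaks of replicates 1 and 2, with folds of 8.21 and 7.27, percentiles of 94.6 and 86.5, and summits 3249 and 3169 bp after the inner start. The strongest peak of replicate 3 (fold 6.28, percentile 80.1) lay 4802 bp after it and overlapped no peak of the other libraries. A small region of replicates 2 and 3 had summits 11925 and 11939 bp after the inner start, 14 bp apart. PRDX1 (chr1:45511051-45522890) had 1 peak each in replicates 2 and 3, inside the gene, with summits 900 and 855 bp below its upper end. Their folds were 4.72 and 4.92 and their percentiles 32.6 and 44.9. By -log10 q they stood higher in their lists, at a mean percentile of 55.03 against 38.8 by fold. Replicate 1 had no peak within 2474598 bp of PRDX1.

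NQO1 encodes a quinone reductase and is the gene most often used as a readout of NRF2. It (chr16:69709401-69726560, minus strand) had 1 peak each in replicates 1 and 3, with folds of 4.39 and 4.96 and percentiles of 29.6 and 45.4. The summits lay 185 and 189 bp before the start, 4 bp apart, while the widths differed, at 167 and 517 bp. Both peaks overlapped the lower end of the divergent noncoding gene NQO1-DT, which begins at 69726727, so the start that they mark cannot be told from position. In replicate 2 the nearest peak was 284854 bp away.

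AKR1C1 and AKR1B10 encode aldo-keto reductases that act on carbonyls and, for AKR1C1, on steroids. AKR1C1 (chr10:4963415-4983283, plus strand) held 4, 5 and 4 peaks, merged into 7 regions, of which 2 had peaks of all 3 libraries. No peak covered the 250 bases before its start. All 13 began after the start, from 43 to 6788 bp into the gene. The strongest had folds of 4.99, 6.98 and 6.42 and percentiles of 49.4, 83.9 and 82.8, so replicate 1 was the lowest. They lay 2921, 3215 and 2821 bp in, inside the shared region chr10:4965798-4966733. Outside the 1000 bp limit, replicates 1 and 3 had overlapping peaks 6180 and 6106 bp before the gene, with percentiles of 80.4 and 70.2. The AKR1C genes are close copies of each other, and how reads with several matches were placed is not given, so the split of signal between AKR1C1 and AKR1C2 or AKR1C3 is uncertain. AKR1C2 had 1 peak each in replicates 2 and 3 (percentiles 19.6 and 35.7), which did not overlap. AKR1B10 (chr7:134527567-134541412) had 1 peak, in replicate 2, across its lower end, with a fold of 5.01 and a percentile of 43.4. The nearest peaks of replicates 1 and 3 were 456053 and 3407612 bp away.

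**Figure D2:**
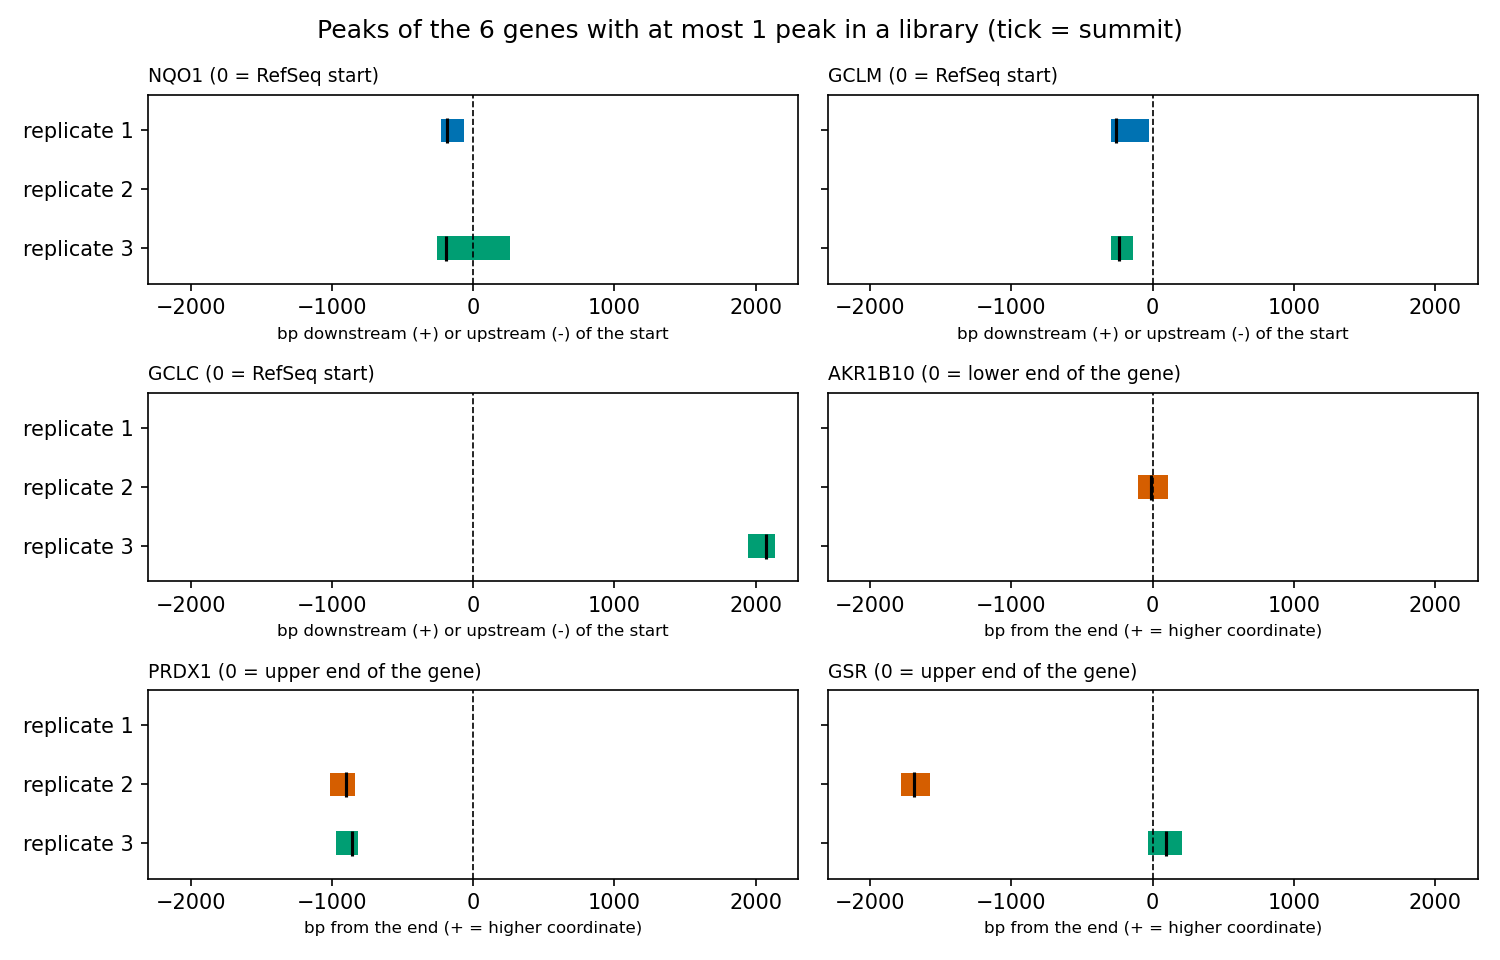
Peaks of NQO1, GCLM, GCLC, AKR1B10, PRDX1 and GSR in V5 replicates 1 to 3, as distance in bp from the RefSeq start or, without one, from the nearer annotated end (dashed line; ticks are summits). Summits of different libraries lie 4 bp apart at NQO1, 23 bp at GCLM and 45 bp at PRDX1, while the peaks of GSR do not overlap.

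UGDH encodes UDP-glucose dehydrogenase, which makes the UDP-glucuronic acid used in glucuronidation. By fold it had the highest percentile of the 10 genes in each library, whereas by -log10 q the strongest peak of NFE2L2 stood above that of UGDH in replicate 1 (percentiles 97.2 against 96.4) and in replicate 3 (95.9 against 93.7). UGDH (chr4:39498755-39527439, minus strand) held 4, 5 and 8 peaks in replicates 1, 2 and 3, which covered 7651, 6771 and 9107 bp. Its strongest peaks had folds of 11.4, 12.2 and 9.51 and percentiles of 99.2, 99.02 and 97.4, ranks 13, 26 and 49 of their lists. They belonged to a block of 7356 bp (chr4:39519863-39527218) that was a single peak of 6542 bp in replicate 1 and of 7099 bp in replicate 3, and 4 peaks in replicate 2. The summits of the strongest peaks lay 3973, 3362 and 3915 bp into the gene. A separate region across the start (chr4:39527232-39527791), 13 bp from the block, had folds of 4.46, 8.22 and 5.34, percentiles of 32.5, 92.5 and 59.4 and summits 18, 76 and 272 bp before the start. Here replicate 2 was high and replicate 1 low. The start peaks of UGDH lay 48 to 162 bp from the lower end of UGDH-AS1, a noncoding gene on the other side. Replicate 3 had 6 further peaks deeper in the gene, with summits 7941 to 12082 bp in. Replicate 1 had 2 there, and replicate 2 had none.

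**Figure D3:**
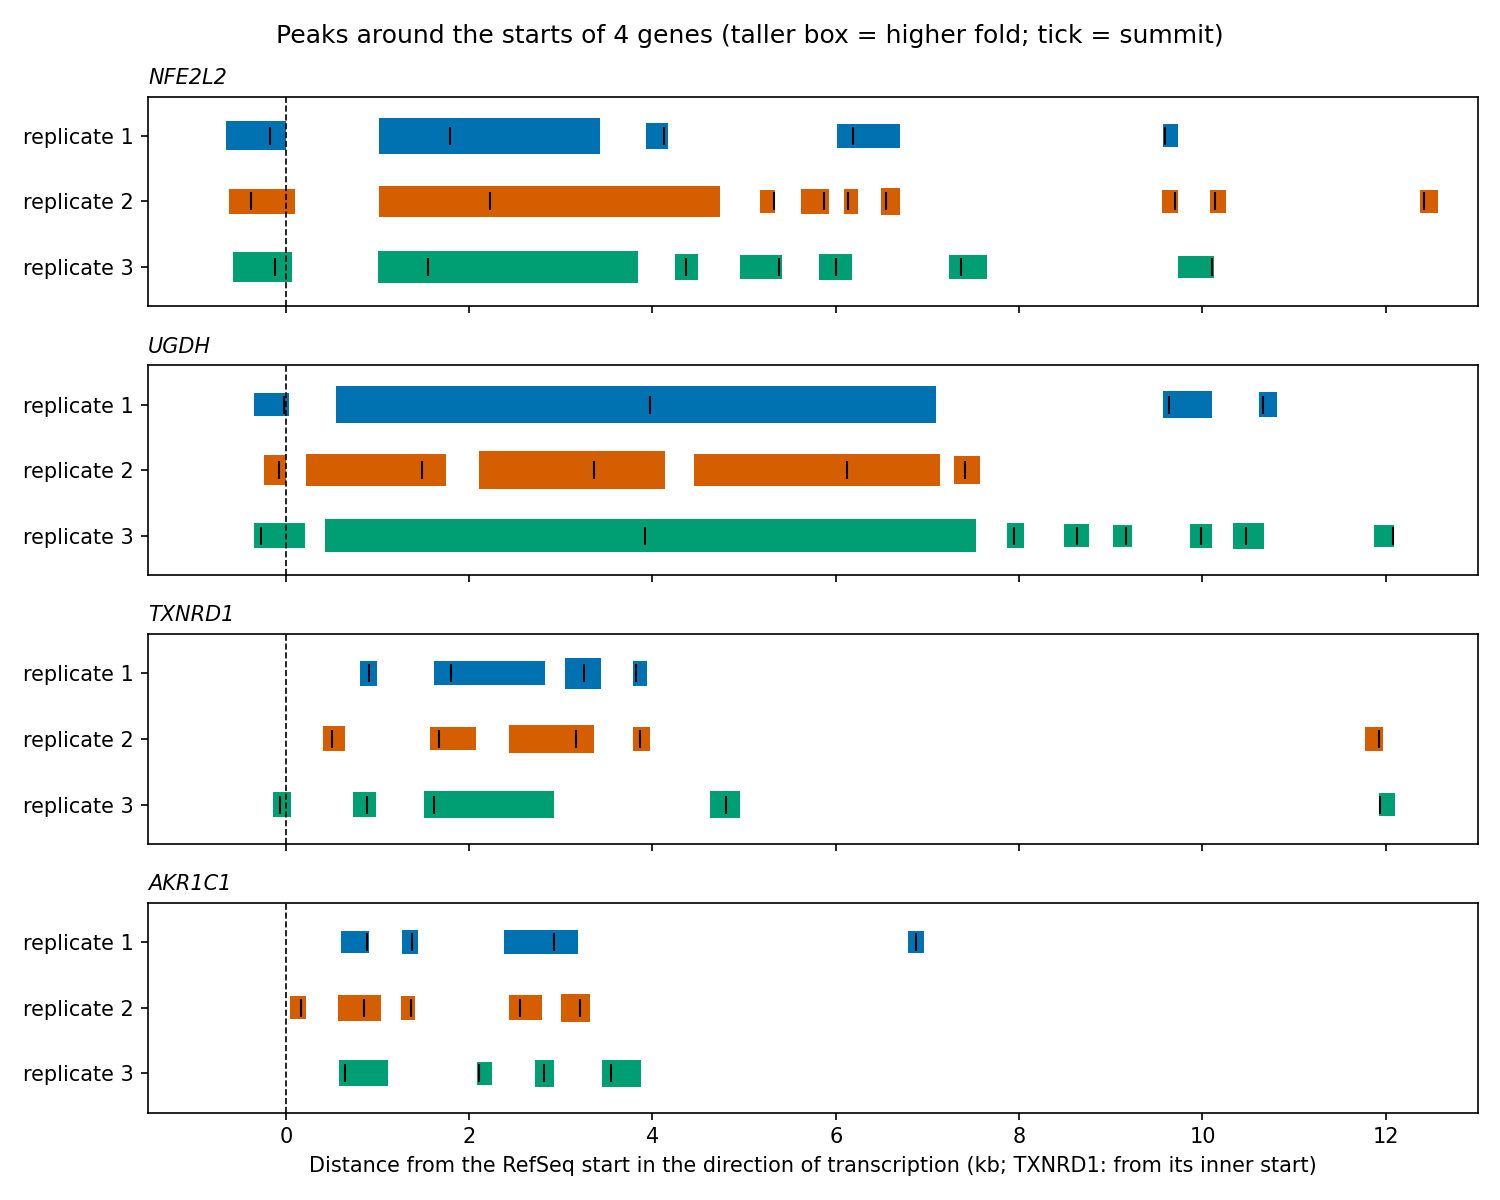
Peaks of NFE2L2, UGDH, TXNRD1 and AKR1C1 in V5 replicates 1 to 3, as distance in kb from the RefSeq start in the direction of transcription (dashed line; inner start for TXNRD1). Box width is peak width, a taller box has a higher fold and ticks are summits. Only peaks over a gene or within 1000 bp of it were collected. Peaks farther upstream are not drawn. Of NFE2L2, UGDH and AKR1C1, only AKR1C1 had such peaks within 20000 bp, so its upstream side is incomplete here. The widest peak, at UGDH, is 7099 bp.

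The 4 genes with peaks in all 3 libraries had several traits in common, but not the position of their peaks near the start. Each had at least 4 peaks in every library, as did 33 of all protein-coding genes (0.165%). NFE2L2 and UGDH had a peak wider than 2000 bp in at least 2 libraries, as did 15 of all protein-coding genes (0.0750%). Between 0.626 and 1.25% of the peaks of a list were that wide. Summits lay more than 1000 and up to 10000 bp downstream of a start in at least 2 libraries in these 4 genes, 4 of the 7 with a start, against 1.33% of genes with a start. On the upstream side over the same distance the count was 1 of 7, AKR1C1, against 0.999%. Peaks within 1000 bp of a start together with such downstream summits were present in 4 of 7, against 0.557%. Only at NFE2L2 and UGDH did the near peaks of all 3 libraries reach the start itself. At AKR1C1 and TXNRD1 the near regions shared by libraries lay inside the gene. Their summits were 644 to 882 bp after the AKR1C1 start and 889 to 908 bp after the inner TXNRD1 start. For TXNRD1 the inner start was taken because it lies nearest the gene's own summits. Counted from that start, or from the upstream start of each other gene, the strongest peak by fold lay over 1000 bp downstream in all 3 libraries of all 4 genes. When the second NFE2L2 start was counted as well, this held for 11 of 12 pairs of gene and library. All pairs counted had both a peak near a start and one farther in. Over all genes there were 162 such pairs, from 72 genes, and in 111 of them (68.5%) the strongest peak lay farther in. By -log10 q this held for 10 of 12 member pairs and for 59.9% of all pairs. The pairs were not matched for peak number. The 4 members had 3 to 8 peaks farther in per library, against 1 or 2 near the start. All of these shares come from the same peaks as the choice of members and are descriptions only.

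How far the libraries overlapped at these genes differed between libraries. In replicate 1, 13 of the 19 member peaks (68.4%) met a peak of replicate 2, and 13 one of replicate 3, against 60.7 and 51.7% of all its peaks. In replicate 2, 16 of 27 (59.3%) met a peak of replicate 1 and 17 (63.0%) one of replicate 3, against 37.7 and 41.0% of all its peaks. In replicate 3, 13 of 29 (44.8%) met a peak of replicate 1, and 13 one of replicate 2, against 44.3 and 55.6% of all. Merging gave 37 regions over the members, 20 with peaks of at least 2 libraries and 8 with all 3. The mean percentile of the strongest peak was 98.6 ± 0.981 at UGDH, 96.8 ± 1.90 at NFE2L2, 87.1 ± 7.26 at TXNRD1 and 72.1 ± 19.6 at AKR1C1 (SD, n = 3). It was 50.3 ± 35.3 at GSR, 38.8 ± 8.66 at PRDX1, 37.5 ± 11.2 at NQO1 and 32.6 ± 3.49 at GCLM (SD, n = 2). A library without a peak was left out of a mean and not counted as low. The ranges of UGDH and NFE2L2 overlapped, as did those of TXNRD1 and AKR1C1, while all 3 values of NFE2L2 lay above those of TXNRD1. NQO1, GCLM and PRDX1 could not be put in order beyond their spread. The median over the 8 called members was 61.2, against 57.8 over all 751 called genes (quartiles 39.0 and 77.6). UGDH had 19 and NFE2L2 33 of these genes above it, whereas GCLM had 607. Without replicate 3 the called members fell to NFE2L2, UGDH, TXNRD1 and AKR1C1.

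The rest of the pathway was described from lists of 92 other genes by role. Of these, 10 had a peak in at least 2 libraries (10.9%, against 3.76% of all genes) and 14 in 1 library only. In any library 24 had a peak (26.1%, against 8.67% of all genes). None of the 15 other regulators was called, which at this list size lies near the share of all genes, and 3 had a peak in any library. KEAP1 and MAFF had 1 peak and SQSTM1, which encodes the autophagy receptor p62 that binds KEAP1, had 2 peaks, all in replicate 3. The KEAP1 peak had a percentile of 76.5 and its summit 134 bp from a start. None of the 10 other thioredoxin and peroxiredoxin genes was called, which also lies near that share. TXN, which encodes thioredoxin, had 2 peaks in replicate 3. In glutathione metabolism 1 of 20 was called, again near that share: GGT1, with peaks in replicates 1 and 3 (percentiles 58.6 and 81.8). SLC7A11, the cystine transporter gene, had 1 peak in replicate 2.

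Glucuronidation and efflux had 3 of 10 genes called: ABCC3, UGT1A6 and ABCG2. The genes of this list are long, with a median of 75777 bp against 18875 bp over the 92. That median lies in the longest length group, where 6.60% of all genes were called. ABCC3, which encodes a basolateral export pump, had folds of 8.44, 7.86 and 11.5 and percentiles of 95.7, 90.5 and 99.3 in its strongest peaks. UGT1A6 had percentiles of 84.8, 95.6 and 92.9. Its peaks lie inside a span shared with 7 other UGT1A genes, 52700 bp or more from the UGT1A6 start, so they cannot be given to 1 of them. ABCG2 had 1 peak each in replicates 1 and 2. Of 15 genes for quinone, carbonyl and aldehyde conversion, ALDH3A2 and AKR1C2 were called (13.3%, against 3.76% of all genes). Neither had overlapping peaks of different libraries. Of the 6 NADPH genes IDH1 was called (16.7%), with 1 peak in each library at percentiles of 54.9, 4.56 and 16.7. In lists this short a single called gene makes a large share. Of the 8 genes of haem and iron, the ferritin genes FTL and FTH1 were called (25%). FTL had percentiles of 45.97, 85.4 and 95.2, and its peaks also reached GYS1. SOD2, the mitochondrial superoxide dismutase gene, was called among the 4 genes that remove superoxide and hydrogen peroxide (25%). Its percentiles were 24.2 in replicate 1 and 89.7 in replicate 3. The annotated span of SOD2 is 159669069 to 159762281 on chromosome 6, and the stretch between its outermost peaks also meets WTAP and ACAT2. HMOX1 had no peak. Of the 92 genes, 0 had 4 or more peaks in every library (0.165% of all genes did) and 0 a peak wider than 2000 bp in at least 2 libraries (0.0750%). Such counts of 0 lie at the background. Of 12 metallothionein and ferritin genes 3 were called (25%), MT2A and the ferritin genes FTL and FTH1, which are also among the 92. These 12 genes are short, with a median of 1383.5 bp, in the shortest length group, where 1.82% of all genes were called. Of 27 genes of the unfolded protein response 2 were called (7.41%), HSPA5 and XBP1, which at this list size lies near the 3.76% of all genes. The differences between these lists, or from all genes, were not tested.

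**Figure D4:**
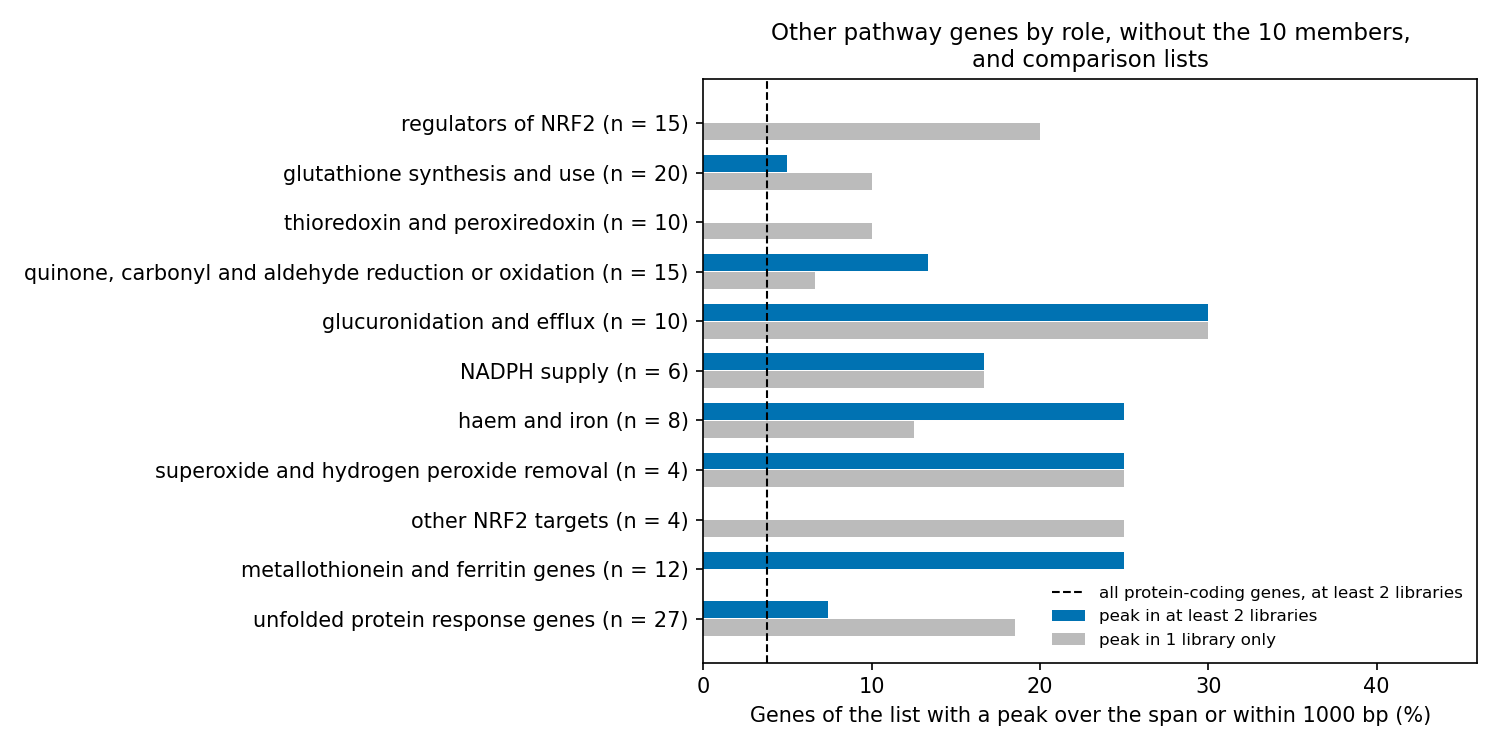
Share of genes in each pathway list, without the 10 members, and in the lists of metallothionein and ferritin and unfolded protein response genes, with a peak over the span or within 1000 bp in at least 2 libraries (blue) or in 1 library only (grey). The dashed line is the 3.76% of all protein-coding genes called in at least 2 libraries and applies to the blue bars only. Regulators of NRF2 have 0 of 15 called, which at this list size lies near that share. Glucuronidation and efflux, a list of long genes, has 3 of 10 called.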

How the data were processed

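The samples were 6 libraries of HepG2-TAF2-V5, grouped by their titles into 3 of the V5 immunoprecipitation and 3 controls. Control libraries entered no analysis. The submitters' processing notes name GRCh38 as the build. Aligner, peak caller, threshold and which control each list was called against: not given in the sources used here. The deposited lists give a fold (a linear ratio), a −log10 p and a −log10 q for each peak. The deposited score repeats the −log10 q, multiplied by 10 and truncated, and was left aside. Depth is unknown, and fold was used only within a list, as a percentile.

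Peaks, in coordinates counted from 1, were matched by an overlap of at least 1 bp to RefSeq gene spans (GRCh38.p14) widened by 1000 bp, and a gene with a peak in at least 2 libraries was called. Overlapping peaks were merged into regions. Starts, strands and promoter sequence came from RefSeq's promoter table (GRCh38.p14), matched by symbol, which held 7 of the 10 members and 76 of the 92 other pathway genes. The gene TRIM16L is listed as a pseudogene and was left out. No test was made, since the members and gene lists were chosen with earlier results of these data known. The text names all 10 members and the other pathway genes called, by a rule written with the lists. KEAP1, MAFF, SQSTM1, TXN, SLC7A11, HMOX1, MT2A, HSPA5 and XBP1, the start and downstream distances, the count of at least 4 peaks, the width over 2000 bp and the capitals for covered bases were chosen after the values were seen. The inner start of TXNRD1 was taken as its reference because it lies nearest its peaks, also a choice made with the values seen. Alternatives covered the window, strength, number of libraries, overlap rule and each replicate left out. The counting code was tested on made-up peaks with known counts. Python 3.11.15, numpy 2.4.6, pandas 2.3.3, scipy 1.17.1 and matplotlib 3.10.9 were used.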

Additional observations from a re-analysis of the deposited data

How the results depend on the processing

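The called members numbered 5 with -log10 q of at least 5, 4 with fold of at least 5, 4 among the strongest 1000 peaks and 4 with 3 libraries, and 4 to 6 without each replicate in turn. NFE2L2, UGDH and AKR1C1 were called under each of the settings run, and TXNRD1 under each but that of a peak within 1000 bp of an annotated end, where its inner start does not count and 6 members were called. In the same order the other pathway genes numbered 3, 6, 4 and 5, and all protein-coding genes 382, 408, 389 and 380. With a peak in any library they numbered 24 and 1732, within 1000 bp of an annotated end 5 and 274, and without each replicate 6 to 7 and 452 to 562. If peaks of different libraries had to overlap, 7 members, 8 other pathway genes and 652 of all genes were called; this was chosen after seeing the data, as were the alternatives on starts and on peak number. At least 5 peaks in each library left 1 member, NFE2L2, and 20 genes, at least 3 peaks gave 53 genes, and leaving out a replicate gave 4 members and 38 to 43 genes. Shared regions over the members numbered 9 with gaps of up to 1000 bp joined, 12 with 50% reciprocal overlap, 6 with -log10 q of at least 5, 9 with fold of at least 5, 10 among the strongest 1000 peaks and 11 to 13 without each replicate. The median percentile of the members' strongest peaks was 51.01 over the 10 members and ran from 51.01 to 66.7 without each replicate, highest without replicate 3, where GCLC has no value. Of all promoters 11.2% held the response element match in the 250 bases before the start alone. Members with a peak near a start numbered 4 to 6 without each replicate, and all genes 115 to 162. Summits more than 1000 and up to 10000 bp downstream were then present in 4 members and 139 to 157 genes. With all replicates, a peak within 250 bp of a start in at least 2 libraries was present in 4 members and 147 genes.
No paired analysis was possible because the controls have no peak list here and no test was made between groups. The peak lists carry no read counts, so a missing peak cannot be told from low depth.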
